A study of Homo sapiens with 8 samples.

Results

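Ribosome biogenesis was followed here through 42 protein-coding genes: RNA polymerase I subunits and factors (9), box C/D and box H/ACA snoRNP proteins (5 and 4), factors of the small subunit processome and 40S maturation (11), factors of 60S maturation (11) and the nucleolar chaperones nucleolin and nucleophosmin (2). The genes were taken by symbol through their Ensembl gene IDs and make up 42 of the 40295 gene IDs in the deposited table. All 42 passed the filter on low counts, and they were tested among 16519 genes. RNA came from HCT116, an epithelial line from a human colorectal carcinoma, and from 1 HCT116 derivative with the MED12 substitution E33Q introduced by CRISPR-Cas9. MED12 is the subunit of the Mediator kinase module that activates the kinase CDK8. Each line was sequenced untreated (0 h) and after 24 h with interferon-γ (IFN-γ) at 5 ng/ml, which gave 4 groups of 2 libraries from rRNA-depleted total RNA. The labels call the pairs biological replicates, name 1 knock-in line and give no untreated sample at 24 h, so that treatment and time in culture cannot be told apart, nor can the substitution and other differences between these 2 lines.

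Ribosomes are assembled in the nucleolus. RNA polymerase I, recruited by UBTF and RRN3, transcribes the 47S precursor of rRNA, which snoRNP particles modify and the small subunit processome and pre-60S factors fold, cut and export. The transcription factor MYC, which Wnt signalling drives in colorectal carcinoma, is a known activator of many of these genes and binds, with MAX, the E-box CACGTG.

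Library totals ran from 20901909 to 28045842 estimated counts. Weighted by counts, transcripts averaged a GC content of 45.8 to 47.2% in untreated and 48.6 to 48.8% in treated libraries. ERCC spike-ins took 0.110 to 0.141% and 0.228 to 0.271% of the counts. IRF1, a direct IFN-γ target, stood at 13.6 and 10.3 CPM (counts per 1000000 counts of a library, with TMM factors) in untreated and 337 and 361 CPM in treated wild-type libraries, and at 11.3 and 11.4 and then 352 and 336 CPM in the knock-in line. The level of MED12 cannot check the E33Q label, which is a substitution. All 6 epithelial markers were detected in every library. The 9 plasma cell and immunoglobulin markers summed to 635 and 777 CPM in the untreated wild-type libraries, 605 CPM in untreated knock-in library 2 and 569 CPM in treated knock-in library 2, against 61.3 to 80.3 CPM in the other 4, where 5 to 7 of the 9 were at 0. In those 4 libraries SDC1 alone stood at 61.3 to 79.5 CPM, and no other marker of this list was above 0.513 CPM. Fibroblast and endothelial markers summed to at most 8.38 CPM and other leukocyte markers to at most 2.46 CPM.

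The E-box was looked for in the members' promoters. In the window from 250 bases before to 50 bases after the RefSeq start (GRCh38.p14), which was at hand for 34 of the 42 members, CACGTG was found in 12 (35.3%), against 1097 of 11049 tested genes (9.93%) and 2030 of all 27305 promoters (7.43%). The motif reads the same on both strands, and a match is a run of letters, not a site shown to be bound. Shown first, each as the 30 bases around the match in the gene's own direction with the motif in capitals, are the 6 members with a motif that were lower in untreated knock-in cells with the GC trend removed (below), and then FBL and UTP4, which carry it and were called in neither comparison between the lines.
NOL6: ggcatttccgccCACGTGggaagctatgag
NOP14: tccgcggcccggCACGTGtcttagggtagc
UTP20: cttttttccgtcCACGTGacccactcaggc
MYBBP1A: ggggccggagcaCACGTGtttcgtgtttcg
WDR43: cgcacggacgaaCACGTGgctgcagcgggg
RRP9: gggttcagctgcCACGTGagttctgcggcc
FBL: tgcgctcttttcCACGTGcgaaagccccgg
UTP4: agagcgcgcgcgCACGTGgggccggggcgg
These lie at chr9:33473894-33473923 (-) for NOL6, chr4:2963374-2963403 (-) for NOP14, chr12:101280083-101280112 (+) for UTP20, chr17:4555340-4555369 (-) for MYBBP1A, chr2:28894658-28894687 (+) for WDR43, chr3:51941892-51941921 (-) for RRP9, chr19:39846356-39846385 (-) for FBL and chr16:69132621-69132650 (+) for UTP4. All 8 motifs were within 30 bases of the annotated start. The other 4 members with the motif were BYSL, NOP10, NOP2 and PES1, and NOP10, with 2 copies, was the one with more than 1.

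With IFN-γ these genes moved in both directions. In wild-type cells 12 members rose and 18 fell, while 17.1% of all tested genes were called higher and 20.8% lower (edgeR quasi-likelihood test, Benjamini-Hochberg adjusted p under 0.05). Changes of a gene are given as log2 fold changes ± the standard error of that fit, and those with spike-in scaling or with the trend removed as log2 fold changes alone. In the knock-in line 15 rose and 18 fell, against 26.4% and 25.8% of all genes. The 12 that rose in wild-type cells and the 18 that fell did the same in the knock-in line, 9 members were called in neither response, and BOP1, RRP9 and RRS1 passed the test, higher, in the knock-in line and not in wild-type cells (the difference between the responses was tested and called for none of them). The shares of all tested genes called alike in both responses, or in neither, were not taken, so this agreement is not a trait shown for the members alone. Median log2 changes of the members were −0.29 in wild-type and −0.17 in knock-in cells, against 0.08 and 0.12 over all tested genes. These directions are relative to the bulk of the RNA: with libraries scaled by the ERCC spike-ins the median over all genes moved to −0.72 and −0.41, and 0 members were called higher and 29 lower in wild-type cells (1.41% and 40.8% of all genes) and 7 and 23 in the knock-in line (3.73% and 33.1%). The immunoglobulin markers were high in both untreated and low in both treated wild-type libraries, and their part in the wild-type response was not tested. Without both knock-in libraries that held them, 9 members were called higher and 10 lower in the knock-in response (7.49% and 13% of all genes). Total RNA from whole cultures was measured, so fewer cells expressing a gene and less of its RNA per cell cannot be told apart.

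NPM1 set the scale of the group. Divided by transcript length, its mean level was 2475 CPM per kb in untreated wild-type and 2303 CPM per kb in untreated knock-in cells, ahead of GNL3 at 427 and 388 CPM per kb. With IFN-γ, NPM1 stood at 1072 and 912 CPM per kb. GAR1 was the lowest in 3 groups, between 4.92 and 6.13 CPM per kb, and POLR1A the lowest in untreated knock-in cells at 4.78 CPM per kb. Counts of all 42 members together came to 12238 and 15957 CPM in untreated and 9262 and 9788 CPM in treated wild-type libraries, and to 12441 and 12473 CPM before and 8269 and 8284 CPM after treatment in the knock-in line. Every treated library was below every untreated one, also with NPM1 left out (6669 to 7846 CPM against 8361 to 10689 CPM).

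**Figure D1:**
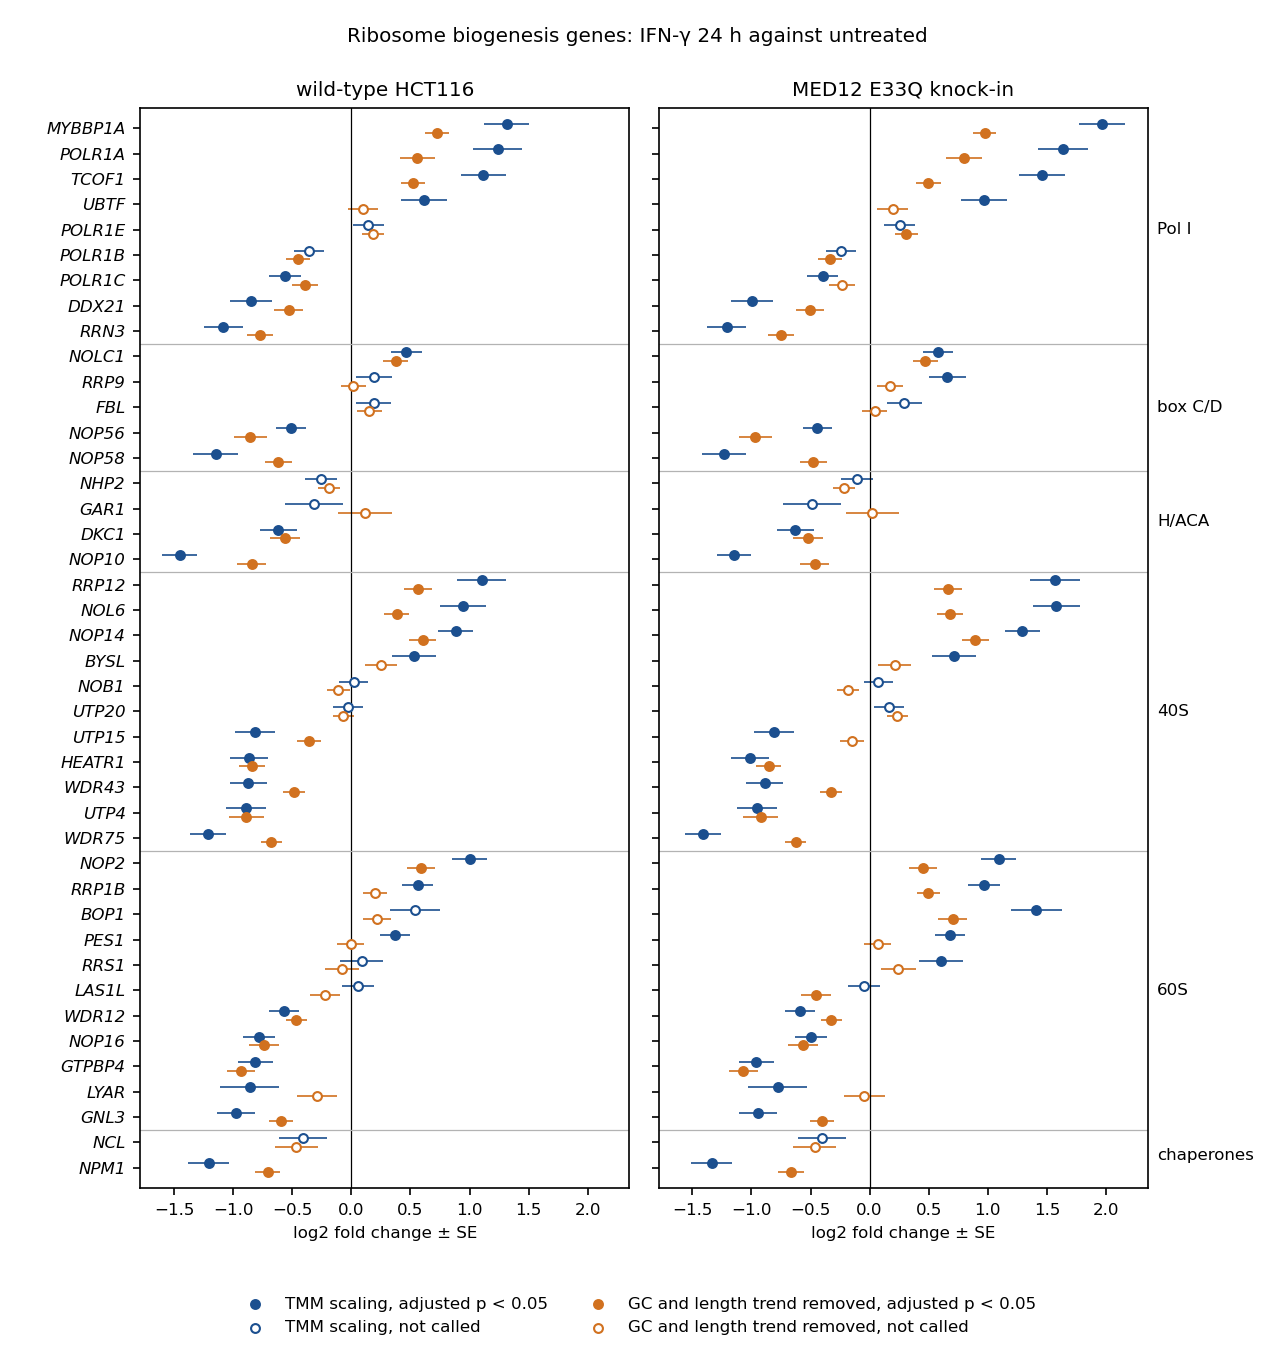
The log2 fold change with its standard error is plotted for each of the 42 members, by role, for IFN-γ against untreated wild-type cells (left) and knock-in cells (right), 2 libraries per group. Blue marks TMM scaling and orange the fit with the GC and length trend removed, filled points are called at an adjusted p under 0.05, and each role except the chaperones and box H/ACA proteins holds genes filled on both sides of 0.

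Transcript GC content went with which way a member moved. Members ran from 39.0 to 65.2% GC, with a median of 50.1%, and the 42 genes' log2 changes with IFN-γ followed GC with a Spearman rho of 0.763 in wild-type and 0.798 in knock-in cells (across genes, which are not independent replicates, and with each gene's change taken from the same libraries). The same held over 15270 tested genes with a known GC content, at 0.493 and 0.648. Of the 22 members above the median GC of tested genes (49.2%), 11 rose and 3 fell in wild-type cells. Of the 20 below it, 1 rose and 15 fell. Among all genes, 26.5% of those above that median and 7.49% of those below it were called higher, and 6.10% and 37.4% were called lower.

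A second fit took out, library by library, how counts varied with transcript GC content and length, and applied the same test. It left 8 members higher and 18 lower in wild-type cells, against 9.61% and 16.1% of all genes, and 11 higher and 17 lower in the knock-in line, against 13.1% and 19.2%. Called in the same direction in both fits were 8 higher and 17 lower in wild-type cells (8.25% and 14.5% of all genes), and 10 higher and 15 lower in the knock-in line (11% and 16.9% of all genes). The members' correlation with GC was then 0.603 in wild-type and 0.571 in knock-in cells, against 0.192 and 0.196 over all tested genes with a known GC content. Of the 20 members of low GC, 15 fell in wild-type cells in this fit too, against 25.7% of all genes of low GC. Called in both fits, and also with any 1 of the 8 libraries left out of either, were MYBBP1A, NOP14, NOP2 and TCOF1 (higher) and GNL3, GTPBP4, HEATR1, NOP10, NOP16, NOP58, NPM1, RRN3, UTP4, WDR43 and WDR75 (lower) in wild-type cells. In the knock-in line these were BOP1, MYBBP1A, NOL6, NOP14, POLR1A, RRP12 and RRP1B (higher) and GTPBP4, HEATR1, NPM1, RRN3, UTP4 and WDR75 (lower). The share of all tested genes that stayed called through the same fits was not taken. Because the second fit left a correlation with GC, being called in both fits does not free a gene of it. Whether the GC shift of the libraries has a part in these or the other calls was not tested.

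**Figure D2:**
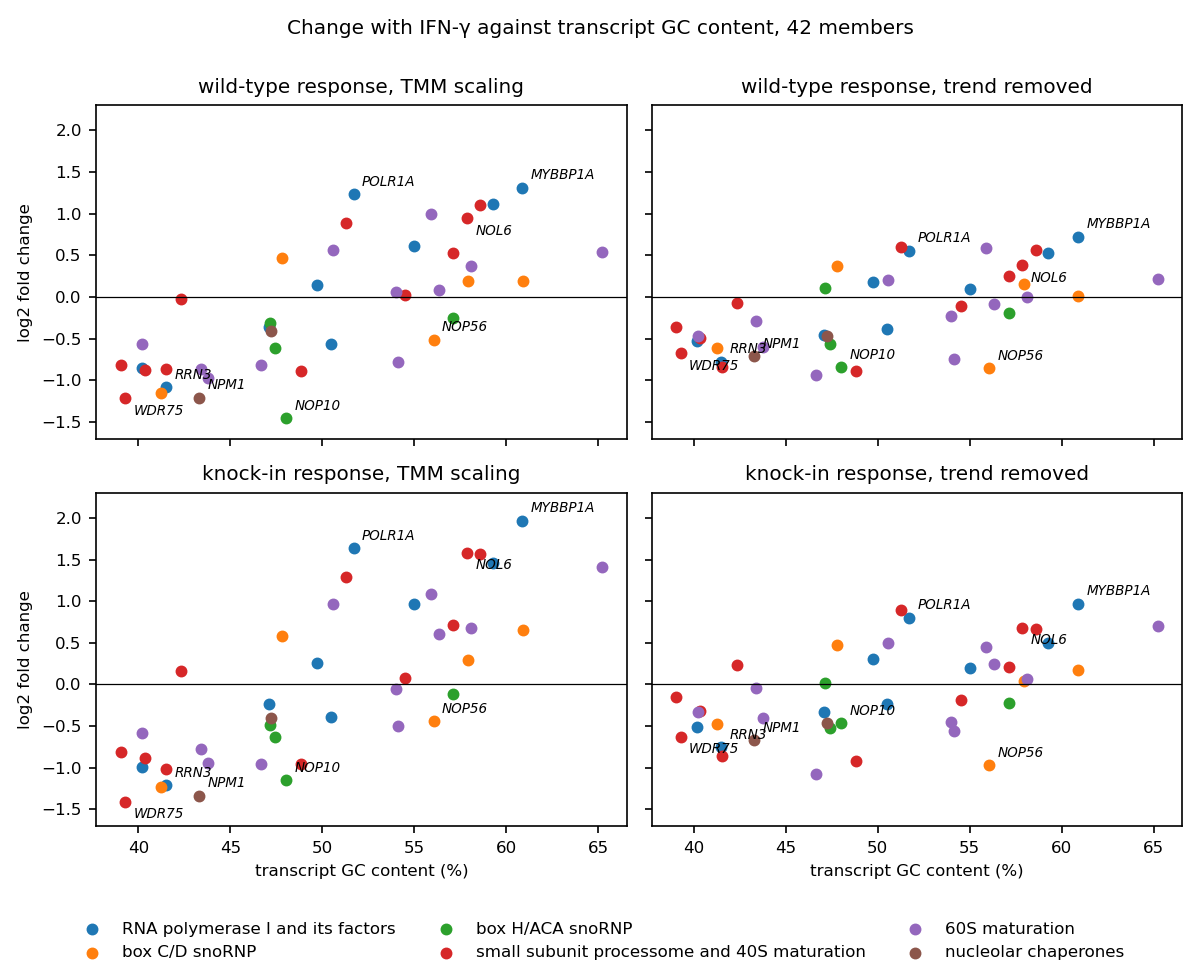
The log2 fold change with IFN-γ is plotted against transcript GC content (%) for the 42 members, coloured by role, in wild-type (top) and knock-in cells (bottom), with TMM scaling (left) and with the trend removed (right). The slope from low to high GC flattens on the right, where POLR1A and MYBBP1A stay above 0 and NPM1, RRN3, WDR75 and NOP56 below it.

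Within the RNA polymerase I apparatus, the catalytic subunit gene and the initiation factor gene moved in opposite directions. POLR1A, the largest subunit, had 112 and 77.9 CPM in the untreated and 226 and 221 CPM in the treated wild-type libraries, against 71.8 and 50.2 and then 199.9 and 179 CPM in the knock-in line. Treated libraries were above untreated ones in both lines, without overlap. POLR1A rose by 1.24 ± 0.21 in wild-type (adjusted p = 0.00193) and 1.64 ± 0.21 in knock-in cells (0.000308), and with the trend removed by 0.56 (0.0216) and 0.80 (0.00303). RRN3, the TIF-IA factor that brings the polymerase to the promoter, had 130.2 and 177 CPM in untreated wild-type cells, 71.1 and 74.0 with IFN-γ, 195 and 169 in untreated knock-in cells and 81.2 and 76.3 in treated ones. All 4 treated libraries lay below all 4 untreated ones. RRN3 changed by −1.08 ± 0.16 at adjusted p = 0.00124, and −1.21 ± 0.16 at adjusted p = 0.000377 (trend removed, −0.78 and −0.75, adjusted p = 0.000983 and 0.000805). A second gene ID carries the same counts as RRN3, so its level is uncertain.

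Other members of this class divided in the same way. MYBBP1A, a nucleolar partner of MYB that also binds RNA polymerase I, had 54.2 and 36.9 CPM (untreated) and 118 and 109 CPM (treated) in wild-type libraries and 27.7 and 23.1 CPM (untreated) and 104 and 93.9 CPM (treated) in knock-in libraries. It showed the largest rise of the 42 in both lines on this scale, 1.31 ± 0.19 at adjusted p = 0.00103 and 1.97 ± 0.20 at adjusted p = 0.000174, and kept 0.73 and 0.97 with the trend removed (adjusted p = 0.000803 and 0.000157). TCOF1, whose product treacle holds the polymerase and UBTF at rDNA, went from 62.4 and 41.0 to 120.2 and 104 CPM in wild-type cells and from 33.3 and 30.8 to 91.2 and 85.1 CPM in the knock-in line. Its treated libraries were above every untreated one of the same line, and the changes were 1.12 ± 0.19 at adjusted p = 0.00221 and 1.46 ± 0.20 at adjusted p = 0.000359 (0.52 and 0.50 with the trend removed, adjusted p = 0.00498 and 0.00541). UBTF, the rDNA architectural factor, rose by 0.62 ± 0.19 (adjusted p = 0.0327) and 0.96 ± 0.20 (0.00267), but was at −0.22 in wild-type cells when scaled by spike-ins, and with the trend removed its changes were 0.10 and 0.20 (adjusted p = 0.634 and 0.3).

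DDX21, a nucleolar RNA helicase, was at 1028 and 1513 CPM before and 673 and 739 CPM after treatment in wild-type cells, and at 1319.6 and 1109 and then 605 and 615 CPM in the knock-in line. It fell in both (−0.85 ± 0.18 at adjusted p = 0.00558 and −0.99 ± 0.18 at adjusted p = 0.00148; −0.53 and −0.51 with the trend removed, adjusted p = 0.00983 and 0.00976). POLR1C, a subunit shared with RNA polymerase III, also fell (−0.56 ± 0.13 at adjusted p = 0.00962 and −0.40 ± 0.13 at adjusted p = 0.0307), and with the trend removed it was called in wild-type cells (−0.39 at adjusted p = 0.0279) but not in the knock-in line (−0.24 at adjusted p = 0.139). POLR1B, the second largest subunit, had 169.7 and 201 CPM (untreated) and 141 and 148 CPM (treated) in wild-type libraries and 137 and 131 CPM (untreated) and 115 and 112 CPM (treated) in knock-in libraries. The subunit POLR1E had 94.3 and 94.1 CPM in the untreated and 98.2 and 110.1 CPM in the treated wild-type libraries, against 68.4 and 79.2 and then 87.0 and 89.1 CPM in the knock-in line. POLR1B (−0.36 and −0.24) and POLR1E (0.14 and 0.25) did not pass the test, with adjusted p from 0.0512 to 0.414. With the trend removed POLR1B was called lower in both lines (−0.45 and −0.33, adjusted p = 0.00956 and 0.0307) and POLR1E higher in the knock-in line (0.31, 0.031). Single libraries decided some of these calls. In wild-type cells UBTF was no longer called without untreated wild-type library 2 (0.131), treated wild-type library 1 (0.136) or 2 (0.108) or treated knock-in library 1 (0.0549) or 2 (0.0544) (adjusted p in parentheses), and stood at 0.36 without the first of these. POLR1C was not called in wild-type cells without treated wild-type library 1 (0.0889) or 2 (0.0546), nor in the knock-in response without treated wild-type library 1 (0.0605) or 2 (0.0611), untreated knock-in library 1 (0.0836) or 2 (0.118) or treated knock-in library 1 (0.195) or 2 (0.12). DDX21 lost its wild-type call without treated wild-type library 1 (0.056) and moved to −0.54 without untreated wild-type library 2 (adjusted p = 0.0104).

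**Figure D3:**
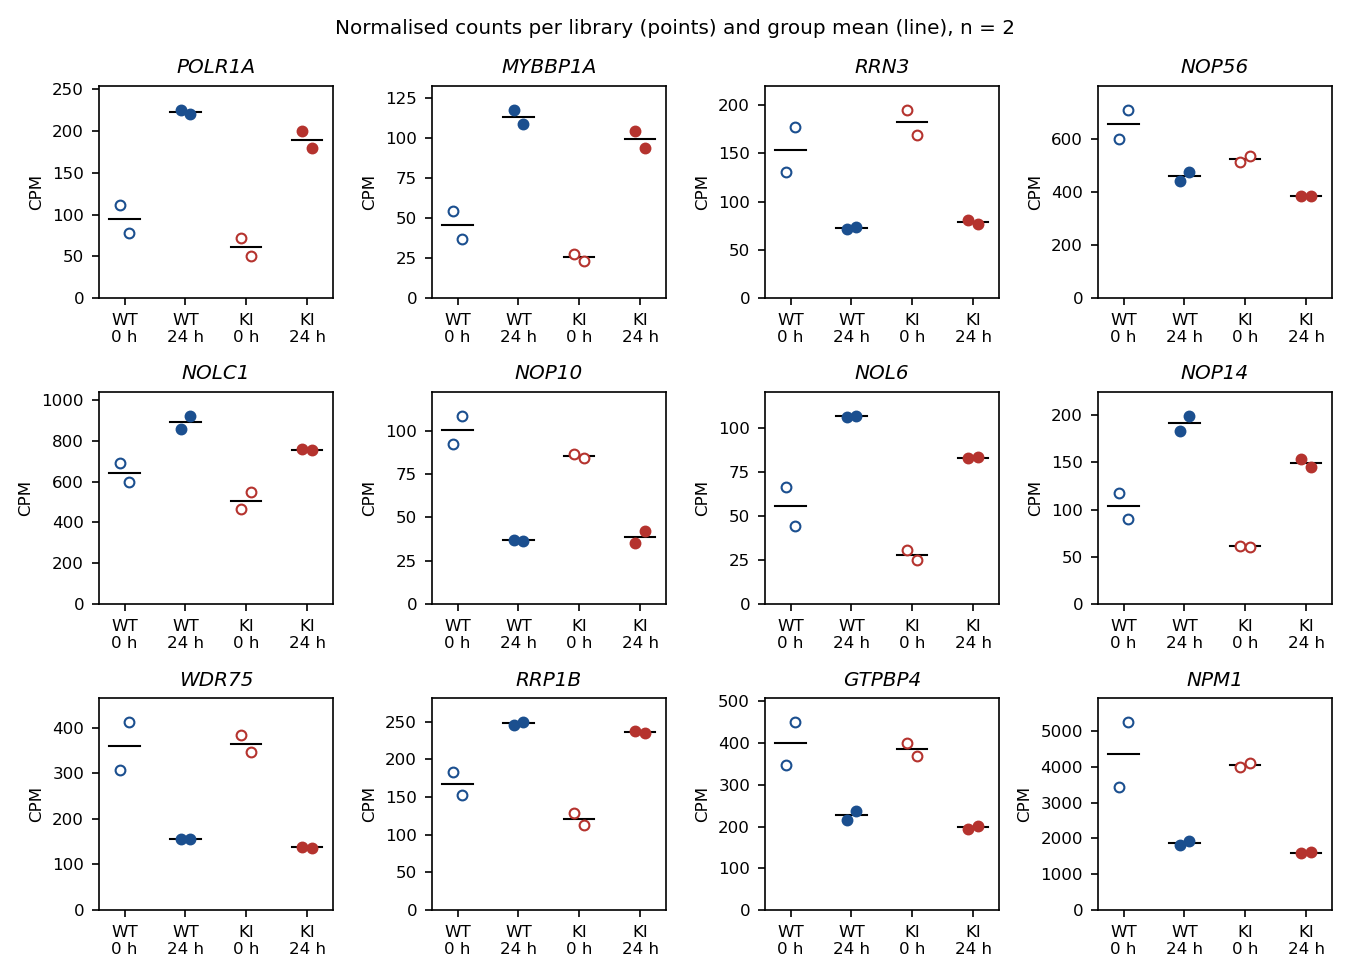
CPM in each library (points) and the group mean (line) are shown for 12 members in wild-type (WT, blue) and knock-in cells (KI, red), untreated (open) and after 24 h of IFN-γ (filled), n = 2 per group. POLR1A, MYBBP1A, NOLC1, NOL6, NOP14 and RRP1B are higher in treated libraries of both lines, and RRN3, NOP56, NOP10, WDR75, GTPBP4 and NPM1 are lower.

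Box C/D snoRNPs, which guide 2′-O-methylation of rRNA, had their core proteins spread over both directions. NOP58, a core scaffold, had 438 and 687 CPM in the untreated and 249.95 and 258 CPM in the treated wild-type libraries, against 578 and 551 and then 233 and 247 CPM in the knock-in line. It fell by 1.15 ± 0.19 and 1.23 ± 0.19 (adjusted p = 0.00179 and 0.000648; −0.62 and −0.48 with the trend removed, adjusted p = 0.00352 and 0.00974), and every treated library was below every untreated one. NOP56, its partner in the particle, had 598 and 710.2 CPM in untreated wild-type cells, 443 and 476 with IFN-γ, 511 and 535 in untreated knock-in cells and 385 and 385 in treated ones. Although it is a GC-rich transcript (56.0%), NOP56 changed by −0.51 ± 0.12 at adjusted p = 0.011 and −0.44 ± 0.12 at adjusted p = 0.0136, and by more with the trend removed (−0.86 at adjusted p = 0.00191, and −0.97 at adjusted p = 0.000719). The methyltransferase FBL (fibrillarin) had 74.7 and 69.6 CPM (untreated) and 78.2 and 86.4 CPM (treated) in wild-type libraries and 68.3 and 84.8 CPM (untreated) and 88.3 and 99.3 CPM (treated) in knock-in libraries. Its groups lay close together and it was called in no comparison (largest change 0.29 ± 0.15 at adjusted p = 0.126). A second gene ID carries the same counts as FBL.

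NOLC1 (Nopp140), a chaperone of snoRNPs and of the polymerase, had 690.1 and 599 CPM in the untreated and 856 and 924 CPM in the treated wild-type libraries, against 466 and 548 and then 761 and 754 CPM in the knock-in line. It rose in both lines (0.47 ± 0.13 at adjusted p = 0.0197, yet −0.35 when scaled by spike-ins, and 0.58 ± 0.13 at adjusted p = 0.00445), and its treated libraries were all above its untreated ones. NOLC1 kept 0.38 and 0.47 with the trend removed (adjusted p = 0.0286 and 0.00788). RRP9, the U3 snoRNP protein, rose in the knock-in line (0.66 ± 0.16 at adjusted p = 0.006, and 0.17 with the trend removed, 0.267) and was at 0.19 ± 0.15 at adjusted p = 0.362 in wild-type cells. Left-out libraries ended calls for NOLC1 without treated wild-type library 1 (0.0736) or 2 (0.13) or treated knock-in library 2 (0.0505), for NOP56 without treated wild-type library 1 (0.101) or 2 (0.055) in wild-type cells and without untreated knock-in library 2 (0.0696) or treated knock-in library 1 (0.0943) or 2 (0.0968) in the knock-in line, and for RRP9 without untreated knock-in library 2 (0.0536), with adjusted p in parentheses.

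Box H/ACA snoRNPs, which guide pseudouridylation, held the largest fall of the 42 in wild-type cells by TMM scaling. NOP10, the smallest core protein, had 92.2 and 109 CPM (untreated) and 36.8 and 36.7 CPM (treated) in wild-type libraries and 86.6 and 84.5 CPM (untreated) and 35.2 and 42.05 CPM (treated) in knock-in libraries. Untreated and treated libraries did not overlap in either line. NOP10 fell by 1.45 ± 0.15 in wild-type cells (adjusted p = 0.000317) and 1.15 ± 0.14 in the knock-in line (0.000292), and by 0.84 (0.0011) and 0.46 (0.0163) with the trend removed, when GTPBP4, UTP4 and NOP56 fell further in wild-type cells. DKC1, the pseudouridine synthase dyskerin, went from 199 and 266 to 141 and 162 CPM in wild-type cells and from 222 and 219 to 138 and 147 CPM in the knock-in line. That was a fall in both lines (−0.62 ± 0.16 at adjusted p = 0.0131, and −0.63 ± 0.16 at adjusted p = 0.00757). In wild-type cells DKC1 had an adjusted p of 0.113 without treated library 1 and a value of −0.39 (adjusted p = 0.0327) without untreated library 2, and in the knock-in line it was not called without treated knock-in library 1 (0.0655). NHP2, another core protein, had 134 and 129 CPM (untreated) and 105 and 115 CPM (treated) in wild-type libraries and 93.4 and 113 CPM (untreated) and 93.2 and 98.3 CPM (treated) in knock-in libraries. NHP2 and GAR1 passed the test in neither line, and GAR1, with 5.93 and 9.07 CPM in untreated wild-type cells, 5.72 and 6.33 with IFN-γ, 10.2 and 9.48 in untreated knock-in cells and 7.51 and 6.54 in treated ones, had the lowest counts of all members (129 in its lowest library).

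Among small subunit factors, the 5 members that belong to the UTP-A complex fell and NOL6, NOP14 and RRP12 rose. UTP-A binds the 5′ end of the nascent precursor. Its members here are HEATR1, UTP4, UTP15, WDR43 and WDR75, and all 5 were called lower in both lines. All 5 are of low GC, where 37.4% of all genes were called lower in wild-type and 47.8% in knock-in cells. WDR75 had 307 and 414 CPM in the untreated and 155 and 155 CPM in the treated wild-type libraries, against 384 and 346 and then 138 and 137 CPM in the knock-in line. Each treated library had less than any untreated one, and the change was −1.21 ± 0.15 at adjusted p = 0.000644, and −1.41 ± 0.15 at adjusted p = 0.000192 (−0.68 and −0.63 with the trend removed, adjusted p = 0.000648 and 0.000608). HEATR1 was at 399 and 550.4 and then 262 and 259 CPM in wild-type and 429.7 and 378 and then 208 and 194 CPM in knock-in libraries. It kept its size when the trend was removed, with −0.86 and −1.01 before and −0.84 and −0.85 after (adjusted p = 0.000674 and 0.00041). UTP4 did likewise (−0.89 and −0.95, then −0.89 and −0.92). UTP15, of lowest GC in the set (39.0%), went from −0.82 and −0.81 to −0.36 (adjusted p = 0.0312) and −0.15 (0.327), and WDR43 from −0.87 and −0.89 to −0.49 and −0.32 (0.00426 and 0.024).

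NOL6, the Nrap protein of the processome, had 66.5 and 44.1 CPM (untreated) and 106 and 107 CPM (treated) in wild-type libraries and 30.6 and 24.9 CPM (untreated) and 82.9 and 83.2 CPM (treated) in knock-in libraries. Both treated groups were above both untreated ones, and untreated knock-in cells were the lowest. The rise was 0.95 ± 0.19 at adjusted p = 0.00475 in wild-type and 1.58 ± 0.20 at adjusted p = 0.00028 in knock-in cells. NOP14, an early 40S factor, had 118 and 89.8 CPM in untreated wild-type cells, 183 and 199.7 with IFN-γ, 61.9 and 60.1 in untreated knock-in cells and 154 and 145 in treated ones. Its groups were in the same order, with changes of 0.88 ± 0.15 at adjusted p = 0.00198 and 1.29 ± 0.15 at adjusted p = 0.000223. RRP12, needed for export of pre-40S particles, rose from 72.8 and 44.9 to 122 and 131 CPM (1.10 ± 0.21 at adjusted p = 0.00331) and from 44.5 and 37.4 to 119 and 123 CPM (1.57 ± 0.21 at adjusted p = 0.000371). With the trend removed NOL6, NOP14 and RRP12 stood at 0.38, 0.60 and 0.57 in wild-type and 0.68, 0.90 and 0.66 in knock-in cells, all 6 called.

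BYSL (bystin), another 40S factor, rose by 0.53 ± 0.19 in wild-type cells (adjusted p = 0.0496), where spike-in scaling gave −0.31, and by 0.71 ± 0.19 in the knock-in line (0.0104), and neither change was called with the trend removed (0.25 and 0.21, adjusted p = 0.214 and 0.286). In wild-type cells it was no longer called without untreated wild-type library 2 (0.169), treated wild-type library 1 (0.106) or 2 (0.23), untreated knock-in library 1 (0.0675) or 2 (0.0669) or treated knock-in library 1 (0.0831) or 2 (0.0824), with values down to 0.28, nor in the knock-in line without untreated knock-in library 2 (0.054) or treated knock-in library 1 (0.0695). NOB1, the endonuclease that makes the 3′ end of 18S rRNA, had 147 and 142 CPM in the untreated and 138 and 155 CPM in the treated wild-type libraries, against 135 and 149 and then 153 and 147 CPM in the knock-in line. All 8 libraries lay close together and no comparison was called. UTP20 did not pass either response test (−0.03 and 0.16, adjusted p = 0.896 and 0.32).

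Factors of 60S maturation split as well. The GTPases that fell were GTPBP4, with 347 and 451 CPM (untreated) and 217 and 238 CPM (treated) in wild-type libraries and 401 and 369 CPM (untreated) and 194 and 202 CPM (treated) in knock-in libraries, and GNL3. Treated GTPBP4 libraries lay below all untreated ones, and the change was −0.81 ± 0.15 at adjusted p = 0.00271, and −0.96 ± 0.15 at adjusted p = 0.000653, and larger with the trend removed (−0.93 at adjusted p = 0.000697, and −1.07 at adjusted p = 0.00025). GNL3 (nucleostemin) went from 722 and 1019 to 424 and 463 CPM in wild-type cells and from 798 and 784 to 405 and 417 CPM in the knock-in line (−0.97 ± 0.16 at adjusted p = 0.00182, and −0.94 ± 0.16 at adjusted p = 0.00108; −0.60 and −0.40 with the trend removed, adjusted p = 0.00266 and 0.0145). NOP16 fell by 0.78 ± 0.14 and 0.49 ± 0.14 (adjusted p = 0.00248 and 0.0134), and LYAR, a nucleolar zinc finger protein, by 0.86 ± 0.25 and 0.78 ± 0.25 (0.0231 and 0.0249). LYAR was not called with the trend removed (−0.29 and −0.04, adjusted p = 0.246 and 0.881).

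PES1, BOP1 and WDR12 form 1 complex, PeBoW, that is needed for 28S and 5.8S maturation, and they did not move as 1. PES1 had 161 and 155 CPM in the untreated and 187 and 221 CPM in the treated wild-type libraries, against 118 and 112 and then 182 and 186 CPM in the knock-in line. BOP1 had 76.4 and 55.9 CPM in untreated wild-type cells, 94.9 and 97.5 with IFN-γ, 43.6 and 28.2 in untreated knock-in cells and 95.3 and 94.9 in treated ones. WDR12 had 146 and 173 CPM (untreated) and 111 and 105 CPM (treated) in wild-type libraries and 139 and 140.0 CPM (untreated) and 94.3 and 91.4 CPM (treated) in knock-in libraries. WDR12 was lower in every treated library than in any untreated one, whereas both PES1 and BOP1 were higher within each line. WDR12 fell by 0.57 ± 0.13 and 0.59 ± 0.13 (adjusted p = 0.00749 and 0.00379; −0.46 and −0.32 with the trend removed, adjusted p = 0.00428 and 0.0191). PES1 rose by 0.37 ± 0.13 and 0.68 ± 0.13 (0.044 and 0.0017) but was at −0.45 in wild-type cells when scaled by spike-ins, and at 0.00 and 0.07 with the trend removed (called in neither line). BOP1 rose in the knock-in line (1.41 ± 0.22 at adjusted p = 0.000648, and 0.70, 0.00201, with the trend removed) and was at 0.54 ± 0.21 at adjusted p = 0.0704 in wild-type cells. A second gene ID carries the same counts as BOP1, so its level is uncertain. Leaving out a library ended the wild-type calls for WDR12 without treated wild-type library 1 (0.0512) or 2 (0.0732) and for PES1 without any 1 of the 8 (adjusted p from 0.0617 to 0.309, value down to 0.25 without treated wild-type library 2).

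NOP2, the methyltransferase NSUN1, had 49.4 and 42.9 CPM in the untreated and 92.7 and 92.4 CPM in the treated wild-type libraries, against 36.8 and 45.7 and then 92.3 and 83.7 CPM in the knock-in line. Its treated libraries were all above its untreated ones, with changes of 1.00 ± 0.15 at adjusted p = 0.00118 and 1.09 ± 0.15 at adjusted p = 0.000402 and, with the trend removed, 0.59 and 0.45 (adjusted p = 0.00621 and 0.0178). RRP1B, which binds a nucleolar protein phosphatase 1, went from 184 and 152 to 245 and 250.03 CPM in wild-type cells and from 128 and 113 to 237 and 234 CPM in the knock-in line. It rose in both lines (0.56 ± 0.13 at adjusted p = 0.0101, yet −0.26 when scaled by spike-ins, and 0.97 ± 0.14 at adjusted p = 0.000434). RRP1B, once the trend was removed, was called in the knock-in line (0.50 at adjusted p = 0.00418) but not in wild-type cells (0.20 at adjusted p = 0.173). RRS1, an early pre-60S factor, rose in the knock-in line (0.60 ± 0.19 at adjusted p = 0.0223) and was not called there with the trend removed (0.24 at adjusted p = 0.249). LAS1L, the endonuclease of the ITS2 spacer, with 58.6 and 66.4 CPM in untreated wild-type cells, 60.8 and 69.1 with IFN-γ, 71.9 and 71.6 in untreated knock-in cells and 66.6 and 72.2 in treated ones, passed neither test (it was called lower, at −0.46, 0.0212, in knock-in cells once the trend was removed). Calls were lost for RRP1B without treated wild-type library 1 (0.0639) or 2 (0.0678) and LYAR without untreated wild-type library 2 (0.144) or without treated wild-type library 1 (0.148) or 2 (0.056) in wild-type cells. In the knock-in line they were lost for LYAR without untreated knock-in library 2 (0.151) or treated knock-in library 1 (0.108) or 2 (0.0816), for NOP16 without untreated knock-in library 2 (0.0757) or treated knock-in library 1 (0.0879) or 2 (0.0892), and for RRS1 without untreated knock-in library 1 (0.148) or treated knock-in library 1 (0.0736) or 2 (0.122). LYAR stood at −0.42 without untreated wild-type library 2.

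Of the 2 nucleolar chaperones, 1 was called. NPM1, nucleophosmin, a histone chaperone that also binds ribosomal particles, had 3435 and 5268 CPM in the untreated and 1827 and 1942 CPM in the treated wild-type libraries, against 3986 and 4112 and then 1592 and 1615 CPM in the knock-in line. Its treated libraries held less than any untreated one, and the change was −1.21 ± 0.18 at adjusted p = 0.00107, and −1.34 ± 0.18 at adjusted p = 0.000343 (trend removed, −0.71 at adjusted p = 0.00139, and −0.67 at adjusted p = 0.0014). NCL, nucleolin, had 559.8 and 735 CPM in untreated wild-type cells, 468 and 508 with IFN-γ, 437 and 672 in untreated knock-in cells and 401 and 438 in treated ones. Both changes were below 0 (−0.41 ± 0.20 at adjusted p = 0.145, and −0.40 ± 0.20 at adjusted p = 0.13) without passing the test, and untreated knock-in library 1 lay within the range of the treated libraries.

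The members called between the untreated lines were all lower in knock-in cells. In untreated cells 0 members were called higher and 7 lower, against 4.26% and 4.17% of all genes: NOL6, RRS1, BOP1, MYBBP1A, NOP14, RRP9 and UTP20. At an unadjusted p under 0.05 edgeR gave 0 higher and 20 lower, against 12.8% and 14.2% of all genes, and DESeq2 the same numbers, against 8.35% and 9.05%. With the trend removed 0 were called higher and 15 lower, against 6.14% and 8.08% of all genes, and the 7 were among the 15 (4.06% of all genes were lower in both fits). The other 8 were NOLC1, POLR1B, POLR1E, RRP1B, TCOF1, UTP15, WDR12 and WDR43. By TMM scaling these differences ran against transcript GC content (Spearman rho −0.516 over the members, −0.360 over all genes with a known GC content). Above the median GC of tested genes 6 members were lower, and 1 below it, against 6.05% and 2.54% of all genes. Trend removal left rho at −0.149 and −0.065, with 9 and 6 lower, against 8.89% and 7.91% of all genes. Of the 42 differences, 36 were below 0, with a median of −0.27 against −0.02 over all genes, and −0.32 against −0.05 with the trend removed. Both knock-in libraries were below both wild-type ones for 23 members and above them for 2, against 25.1% and 25.5% of all genes. Spike-in scaling moved the median over all genes to −0.35 and gave 0 higher and 9 lower, against 0.908% and 3.13% of all genes. Without both knock-in libraries that held immunoglobulin counts, the calls were lost in a fit with 1 untreated knock-in library. There 35 of the 42 differences were below 0, with a median of −0.34 against −0.02 over all genes.

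NOL6 had the largest difference, with 66.5 and 44.1 CPM in untreated wild-type and 30.6 and 24.9 CPM in untreated knock-in libraries (−0.995 ± 0.20 at adjusted p = 0.018, and −0.77 at adjusted p = 0.00238 with the trend removed). RRS1 was at 23.3 and 19.1 CPM against 9.97 and 12.4 CPM (−0.92 ± 0.19 at adjusted p = 0.0202, and −0.86 at adjusted p = 0.0056). NOP14 was at 118 and 89.8 CPM against 61.9 and 60.1 CPM (−0.77 ± 0.15 at adjusted p = 0.0178, and −0.71 at adjusted p = 0.00415). None of these 3 overlapped between the lines. BOP1 (−0.89 ± 0.21 at adjusted p = 0.0367) and MYBBP1A (−0.85 ± 0.19 at adjusted p = 0.03) were lower by a similar amount, with 43.6 and 28.2 and 27.7 and 23.1 CPM in untreated knock-in cells. The U3 protein RRP9 was at 81.8 and 64.9 CPM against 51.8 and 45.3 CPM (−0.60 ± 0.16 at adjusted p = 0.0473), and UTP20, a large processome scaffold, at 196 and 227 CPM against 148 and 138 CPM (−0.56 ± 0.13 at adjusted p = 0.0297, and −0.62 at adjusted p = 0.00208). Here too the groups did not overlap.

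The call in every one of these 7 was lost with some library left out. NOL6 was not called without untreated knock-in library 2 (0.126), with adjusted p in parentheses here and in the next sentences. NOP14 was not called without untreated knock-in library 1 (0.0723) or 2 (0.106), and RRS1 without untreated wild-type library 1 (0.0657) or untreated knock-in library 1 (0.101) or 2 (0.059). The other 4 calls were each lost with any 1 of 6 or 7 libraries left out. For BOP1 these were untreated wild-type library 1 (0.163), treated wild-type library 1 (0.0724) and 2 (0.0722), untreated knock-in library 2 (0.187) and treated knock-in library 1 (0.069) and 2 (0.0683). For MYBBP1A they were untreated wild-type library 1 (0.0996), treated wild-type library 1 (0.0609) and 2 (0.0608), untreated knock-in library 1 (0.0688) and 2 (0.178) and treated knock-in library 1 (0.0597) and 2 (0.058). For RRP9 they were untreated wild-type library 1 (0.145), treated wild-type library 1 (0.0861) and 2 (0.0867), untreated knock-in library 1 (0.0945) and 2 (0.236) and treated knock-in library 1 (0.102) and 2 (0.101). For UTP20 they were treated wild-type library 1 (0.0724) and 2 (0.0727), untreated knock-in library 1 (0.0872) and 2 (0.168) and treated knock-in library 1 (0.0769) and 2 (0.0766). MYBBP1A then stood at −0.54 without untreated wild-type library 1. The numbers called, among members and among all genes, changed with the library left out. Without untreated wild-type library 2, 28 of the 42 differences were below 0, with a median of −0.15 against 0.00 over all genes. Once the trend was removed, MYBBP1A, NOL6, NOP14, RRS1, UTP20 and WDR43 were called whichever library was left out, and the share of all genes that did so was not taken. The 2 untreated wild-type libraries differed more than other pairs, with a median absolute log2 ratio over the members of 0.40 (0.22 with the trend removed), against 0.15 in untreated knock-in and 0.08 to 0.11 in treated groups. The immunoglobulin counts given above were in both untreated wild-type libraries and in untreated knock-in library 2, and their part in the line difference was not tested beyond leaving libraries out.

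MYC itself was at 316 and 202 CPM in untreated wild-type and 92.5 and 105 CPM in untreated knock-in cells (−1.39 ± 0.19 at adjusted p = 0.00356, and −1.26 at adjusted p = 0.000246 with the trend removed). With IFN-γ it was at 404 and 400.2 CPM in wild-type and 260.3 and 264 CPM in knock-in cells. On the TMM scale, MYC's group means rose in the order untreated knock-in, untreated wild-type, treated knock-in and treated wild-type. This order was found in 14 of the 42 members, among them NOL6, NOP14, TCOF1 and MYBBP1A, and in 16.6% of all tested genes. All of the 14 but NOLC1 were above the median GC of tested genes (49.2%), and the share among genes of like GC was not taken. With the trend removed NOL6, PES1, RRP9 and UBTF left this order, and the rest of the 14 kept it. The order of MYC's middle means is within the spread of its replicates, since untreated wild-type library 1 was above both treated knock-in libraries and library 2 below them. Of the 12 members with a CACGTG in the promoter window, 6 were called lower in untreated knock-in cells with the trend removed, namely those whose sequences are printed first above, and 3 of 22 without it, with median differences of −0.40 and −0.28. By TMM scaling the medians were −0.41 and −0.20, with 5 and 0 called. With IFN-γ this contrast was not seen on the TMM scale, where the medians were −0.17 with and −0.20 without the motif and 0 were called in either set. Once the trend was removed they were −0.27 and −0.21, with 2 and 0 called. Members without a promoter window at hand are not in this split. Of these, BOP1, NOLC1, POLR1E, RRP1B, RRS1 and TCOF1 were called lower in untreated knock-in cells with the trend removed. BOP1 and RRS1 were also called by TMM scaling, and NOP58 and RRP12 were called in neither fit. These are descriptions of 34 genes chosen by function, and binding was not measured.

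**Figure D4:**
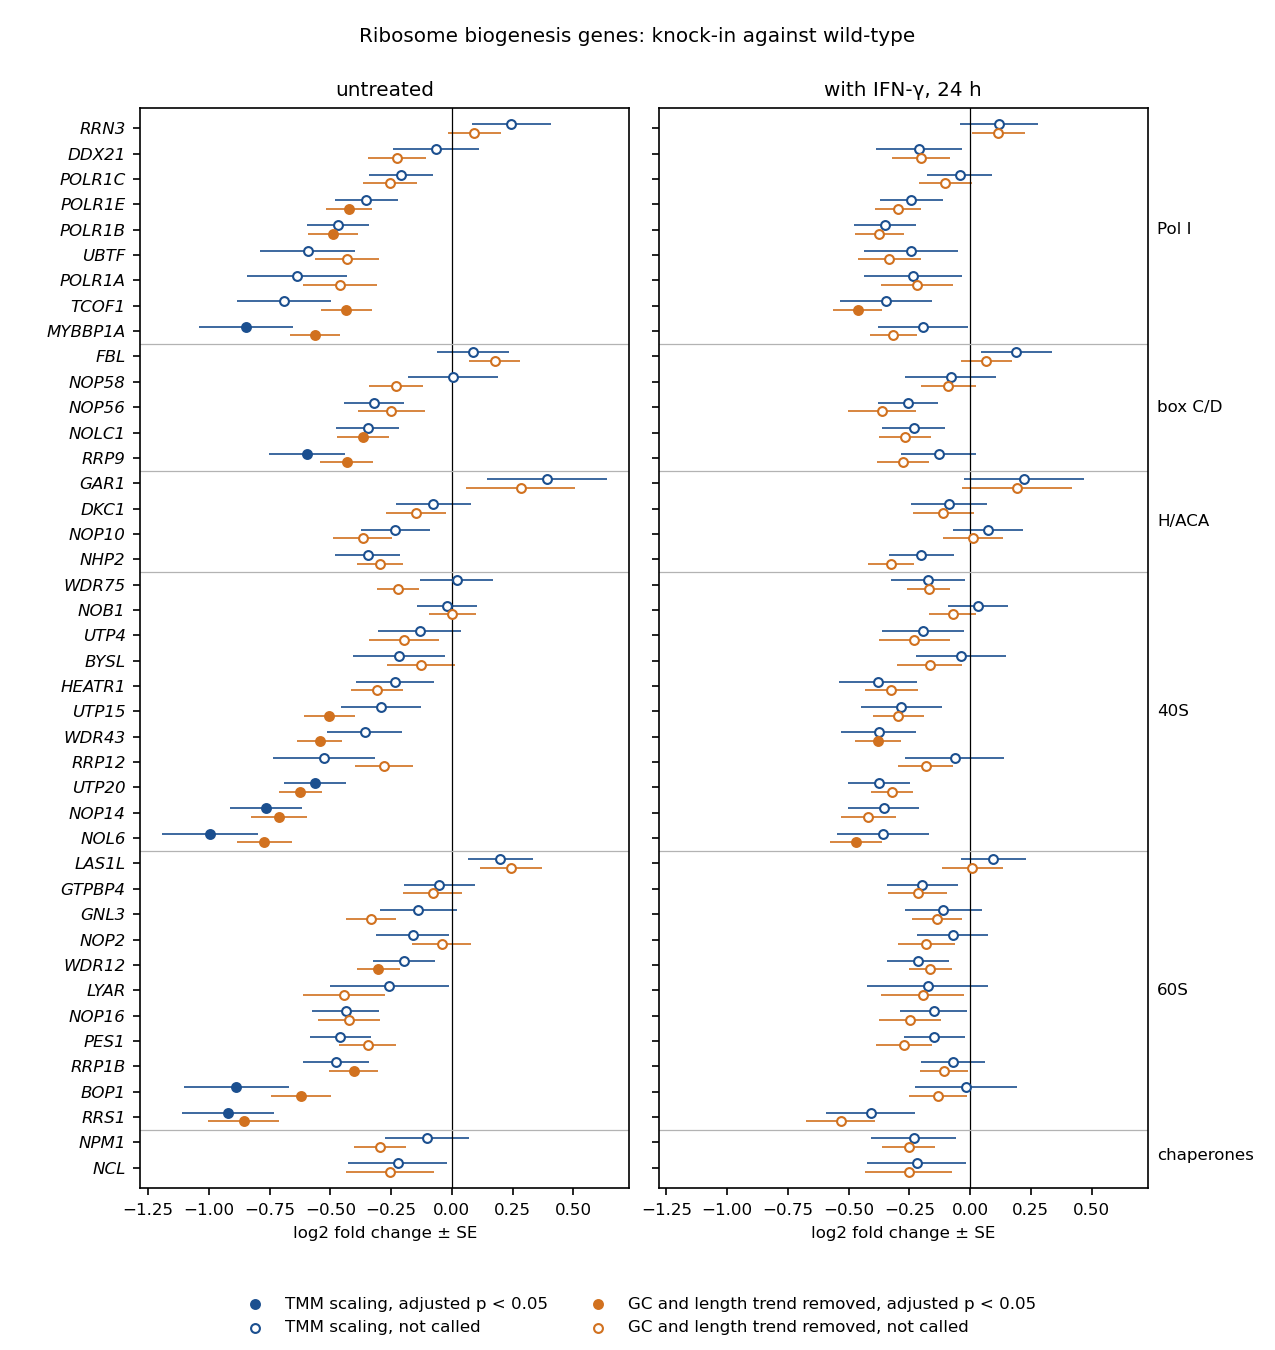
The log2 fold change of knock-in against wild-type cells with its standard error is plotted for the 42 members by role, untreated (left) and with IFN-γ (right), 2 libraries per group. Colours and fills mark the 2 fits and the calls, with most points left of 0 on both sides and filled points, all left of 0, mostly in the untreated comparison.

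After IFN-γ no member passed the test between the lines. By edgeR 0 members were called higher and 0 lower, against 1.63% and 1.28% of all genes, and at an unadjusted p under 0.05 there were 0 and 5, against 8.06% and 7.45% of all genes (0 and 5 by DESeq2 as well, against 4.81% and 4.82%). The differences were still mostly below 0, in 36 of 42, with a median of −0.19 against −0.01 over all genes. Both treated knock-in libraries were below both wild-type ones for 29 members and above them for 3, against 29.9% and 27.8% of all genes. With the trend removed 0 were called higher and 3 lower (3.28% and 4.16% of all genes): NOL6 (−0.47 at adjusted p = 0.0285), TCOF1 (−0.46 at adjusted p = 0.0248) and WDR43 (−0.38 at adjusted p = 0.0386). None of the 3 was called when any 1 of the 4 treated libraries was left out as well (adjusted p from 0.0770 to 0.296).

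The interaction test, which asks whether the responses of the lines differ, called 0 members higher or lower and 0% of all genes (at an unadjusted p under 0.05, 3 members higher and 0 lower by edgeR, against 3.55% and 3.23% of all genes, and by DESeq2, against 2.15% and 2.05%). The largest difference was in BOP1, 0.87 ± 0.30 at adjusted p = 0.688, with MYBBP1A at 0.65 ± 0.27 at adjusted p = 0.688 and NOL6 at 0.64 ± 0.27 at adjusted p = 0.688. These differences followed transcript GC content, with a Spearman rho of 0.754 over the members and 0.499 over all genes with a known GC content. Trend removal left rho at −0.018 and 0.048, the largest difference of a member at 0.49 and MYBBP1A at 0.25. BOP1 was the 1 member called, higher, when no filter on low counts was used, against 189 of 24104 genes. The 2 responses and the 2 line differences share their 8 libraries, so that a low untreated knock-in level enters both the knock-in response and the untreated line difference of the same gene.

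Among other genes of these pathways, listed by function, more were called lower than higher with IFN-γ in each list but that of RNA polymerase III, read against 17.1% of all genes higher and 20.8% lower in wild-type and 26.4% and 25.8% in knock-in cells. For counts with the trend removed, the shares of all genes were 9.61% higher and 16.1% lower in wild-type and 13.1% and 19.2% in knock-in cells. Of 9 other RNA polymerase I genes, 1 rose and 5 fell in wild-type cells and 2 rose and 5 fell in the knock-in line (0 and 5, and 1 and 5, with the trend removed). The subunit gene TWISTNB changed by −1.35 ± 0.17 at adjusted p = 0.000625, and −1.45 ± 0.17 at adjusted p = 0.000222. The SL1 subunits TAF1A and TAF1B fell in both (−0.93 and −1.15 in wild-type, −1.25 and −1.28 in knock-in cells), while their partner TAF1C rose in the knock-in line (1.26 ± 0.26 at adjusted p = 0.00284, and 0.34 at adjusted p = 0.0927 with the trend removed). Of 33 other small subunit factors, 4 rose and 20 fell in wild-type and 7 and 19 in knock-in cells (1 and 16, and 3 and 16, with the trend removed). KRR1 went from 434 and 641 to 218 and 214 CPM in wild-type and from 566 and 490.4 to 162 and 168 CPM in knock-in cells, and the helicase DHX37 from 42.2 and 30.7 to 102 and 107 CPM in the knock-in line (1.52 ± 0.23 at adjusted p = 0.000588). Of 42 other large subunit factors, 10 rose and 19 fell in wild-type and 15 and 21 in knock-in cells (4 and 20, and 5 and 17, with the trend removed), with BRIX1 at −1.46 ± 0.17 at adjusted p = 0.000478, and −1.49 ± 0.17 at adjusted p = 0.000197.

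In untreated cells 7 of those 42 large subunit factors were lower in the knock-in line and 0 higher (17 and 0 with the trend removed). Of all genes 4.17% were lower (8.08% with the trend removed). Of the 33 small subunit factors 1 was lower, a share no higher than that of all genes, and 9 with the trend removed. SENP3, a nucleolar SUMO protease, was at 113 and 85.2 CPM against 49.7 and 44.1 CPM (−1.08 ± 0.17 at adjusted p = 0.00707). The export adaptor NMD3 and the AAA ATPase MDN1 were the 2 lower after IFN-γ (−0.88 ± 0.16 at adjusted p = 0.0215, and −0.66 ± 0.12 at adjusted p = 0.0199). NMD3 was at 146 and 142 CPM in treated wild-type and 77.9 and 78.9 CPM in treated knock-in libraries. Neither was called when any 1 of the 4 treated libraries was left out (adjusted p from 0.135 to 0.302), and SENP3 was not called without untreated knock-in library 2 (0.0633). Of 13 genes of the nuclear exosome, which trims rRNA precursors, 0 rose and 8 fell in wild-type and 2 and 9 in knock-in cells (0 and 6, and 1 and 5, with the trend removed), with C1D at −1.38 ± 0.18 at adjusted p = 0.000677, but −0.31 at adjusted p = 0.0913 with the trend removed. Of 19 RNA polymerase III genes, which serve 5S rRNA and tRNA, 6 rose and 5 fell in wild-type and 10 and 6 in knock-in cells (1 and 4, and 5 and 2, with the trend removed). Under spike-in scaling 0 genes of these lists were called higher in wild-type cells, against 1.41% of all genes.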

How the data were processed

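The deposited table holds the authors' estimated counts per Ensembl gene ID, made with Trimmomatic and kallisto against GRCh38 per the submitters' processing notes, with versions and annotation not given in the sources used here. It has 40295 gene IDs and 63 ERCC spike-ins. The members and the other lists were chosen with earlier results of these data known.

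Estimated counts were rounded, filtered with filterByExpr (minimum count 10, leaving 16519 genes), scaled by TMM and fitted in R 4.3.3 with edgeR 4.0.16, 1 quasi-likelihood fit over all 8 libraries, with group as the factor. P-values were adjusted by Benjamini-Hochberg over all tested genes, at a threshold of 0.05, and measure the spread between 2 libraries per group. GC content and length were those of 1 protein-coding transcript per gene (best APPRIS rank, then longest) in GENCODE release 29. The second fit added a loess trend (span 0.3) on both as an offset. Fits were also run on simulated data with less spread between replicates than these data have, which does not show how they perform at the spread seen here. Alternatives were DESeq2 1.42.0, its size factors, spike-in scaling, no filter, a replicate block and left-out libraries. The members given in every library include those with the largest called changes within each role and those called in no comparison with TMM scaling.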

Additional observations from a re-analysis of the deposited data

How the results depend on the processing

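Counts of members called were higher then lower as follows where a choice moved them by more than 1.5 times. Spike-in scaling gave 0 and 29 in the wild-type response (12 and 18 in the main fit) and 7 higher in the knock-in response (15). Without both knock-in libraries with immunoglobulin counts, the knock-in response had 9 and 10 and the untreated line difference 0 lower (7). That line difference had 13 lower with DESeq2 (1183 of 40295 gene IDs, tested or not) and 14 without the filter (1644 of 24104 genes). It had 15 with the GC and length trend removed (1335 of 16519 genes), where the main fit called 689 of 16519 genes lower. Trend removal gave 3 lower with IFN-γ (0), with 688 of 16519 genes lower. No filter gave 1 higher between the responses (0), with 189 of 24104 genes higher. Correlations of same-numbered deviations were −0.00195 to 0.0738 between groups, but 0.270 between untreated and treated knock-in cells. In both of those groups library 2 was the one with immunoglobulin counts. Whether replicate numbers pair the libraries was not settled. The replicate block gave 11 lower in untreated cells (1025 of 16519 genes) and 15 together with the trend removed (1427 of 16519 genes). With IFN-γ it gave 3 lower together with the trend removed (736 of 16519 genes).

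Leaving out 1 library gave 7 to 12 higher and 12 to 21 lower in the wild-type response, 13 to 15 and 13 to 21 in the knock-in response, 0 to 4 and 0 to 16 between untreated lines and 0 to 5 lower between treated lines. With the trend removed as well, the wild-type response had 4, 5 or 6 higher in 5 of these fits, the knock-in response down to 7 higher and 8 lower, the untreated line difference 6 to 17 lower (13, 14 and 16 among them) and the treated one 0 to 8 lower (3 and 8 among them).

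Direction turned in the wild-type response with spike-in scaling for UBTF (−0.22), NOLC1 (−0.35), BYSL (−0.31), PES1 (−0.45) and RRP1B (−0.26). PES1 stood at −0.00 with the trend removed, −0.01 with the block as well, and −0.13 to −0.01 in left-out fits with the trend removed. UBTF was at −0.02 without untreated wild-type library 2 and LYAR, in the knock-in response, at 0.00 without untreated knock-in library 2, both with the trend removed. The causes were not tested. Where a group was left with 1 library, that library was assumed to vary like the other groups. Numbers called among all genes also changed from fit to fit, so the members' ranges over left-out libraries carry no share of all genes. With 2 libraries per group, differences of the size of the replicate spread were not detectable.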
